A study of Sus scrofa with 13 samples.

Results

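APC, the catenins CTNNB1 and JUP, and 7 further genes of the Wnt/β-catenin pathway (AXIN1, AXIN2, GSK3B, LRP5, LRP6, TCF7L2 and SFRP1) were followed in loin muscle of pigs. The genes were taken by symbol, and all 10 of the 10 listed were found among the 25322 gene identifiers in the deposited count tables. They were selected on the measured level of APC, which was much lower in Hampshire pigs with high loin weight than with low loin weight, so that comparison is a description: no p-value is given for it, and its calls only say which values passed the rule used for all genes. RNA-seq had been performed on longissimus lumborum muscle of 13 unrelated female pigs aged 6 months, taken from a larger population for extreme weights of the loin. The groups were 3 Hampshire pigs with high loin weight (pigs 8, 9 and 10), 3 Hampshire pigs with low loin weight (pigs 1, 2 and 3), 4 Pietrain pigs with high loin weight (pigs 1, 2, 6 and 7) and 3 Pietrain pigs with low loin weight (pigs 3, 5 and 8). Hampshire and Pietrain are both sire breeds, kept for lean meat content, and no pig received a treatment.

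The Wnt/β-catenin pathway turns on a cytoplasmic destruction complex. In the absence of a Wnt ligand, the scaffolds APC and axin hold β-catenin (CTNNB1) beside the kinases GSK3 and CK1, which mark it for degradation. A Wnt ligand bound to a Frizzled receptor and an LRP5 or LRP6 coreceptor stops this, and β-catenin then enters the nucleus and acts with TCF factors such as TCF7L2. Secreted SFRP proteins bind Wnt ligands outside the cell. β-catenin and its relative plakoglobin (JUP) also serve as structural proteins of cell junctions, JUP in desmosomes as well as in adherens junctions. In skeletal muscle the pathway is best known for its part in myogenesis and in satellite cells.

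Total counts per pig lay between 11312755 and 20134612, and in all 15 pairs of pigs of the same group the counts differed by more than sampling noise. The tissue carried its defining markers, with ACTA1 between 27200 and 138000 CPM (counts scaled to library size) and CKM between 15900 and 63100 CPM. Values per pig below are TMM-normalized CPM, and differences are log2 fold changes. In whole muscle, fewer cells of a type and less RNA per cell cannot be told apart. Hampshire and Pietrain counts came in separate tables, so a breed, its table and any batch that goes with it cannot be told apart.

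APC was the gene that set the Hampshire groups furthest apart among the genes followed. In Hampshire, 3 of the 9 genes that passed the expression filter met the rule by which a gene is called here (edgeR's quasi-likelihood test, at least 1.2-fold with an adjusted p-value under 0.05), beside 26.6% of all 12228 genes tested. APC and LRP6 were lower, as were 14.6% of all genes, and SFRP1 was higher in high loin weight, as were 12%. For 5 of the 10 genes every pig of a loin weight group lay on the same side of the other group, beside 45.9% of all genes. The contrast that chose the genes gave these counts, APC's place among them was set by that choice, and nothing is read from them.

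In Pietrain, 0 of the 9 genes tested were called, beside 0% of all 12065 genes tested. The same count came from DESeq2, and 0 of the 9 had an unadjusted p-value under 0.05, where 3.3% of all genes had one. The high and low groups overlapped for all 10 genes, where 4.59% of all genes had groups apart. The study itself, with DESeq2, reports differentially expressed genes in Pietrain, and the reason for this difference was not tested. Between breeds, with the loin weight groups averaged, 7 of the 9 genes were called, beside 52.3% of all 12831 genes tested. APC is 1 of the 7, through the Hampshire pigs with high loin weight on which it was chosen, and was not called among low loin weight pigs alone, so its call is no test. JUP, AXIN1 and LRP5 were higher in Hampshire, beside 25.4% of all genes. APC, CTNNB1, GSK3B and LRP6 were lower, beside 26.9% of all genes, and the same 7 had an unadjusted p-value under 0.05, beside 58.5%. With 9 genes counted, and APC among them by choice, nothing particular to these genes is read from these counts. Markers of other cells moved with breed too. All 7 macrophage markers measured were above 0 for Hampshire against Pietrain, with summed levels of 49.4 to 200 CPM in Hampshire and 17.6 to 55.8 CPM in Pietrain, as were 7 of 9 fibroblast and matrix markers. Skeletal muscle fibre markers were above 0 for 7 of 10, endothelial markers for 3 of 5, and smooth muscle and pericyte markers for 5 of 6. The part of these cells in the breed differences was not tested.

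**Figure D1:**
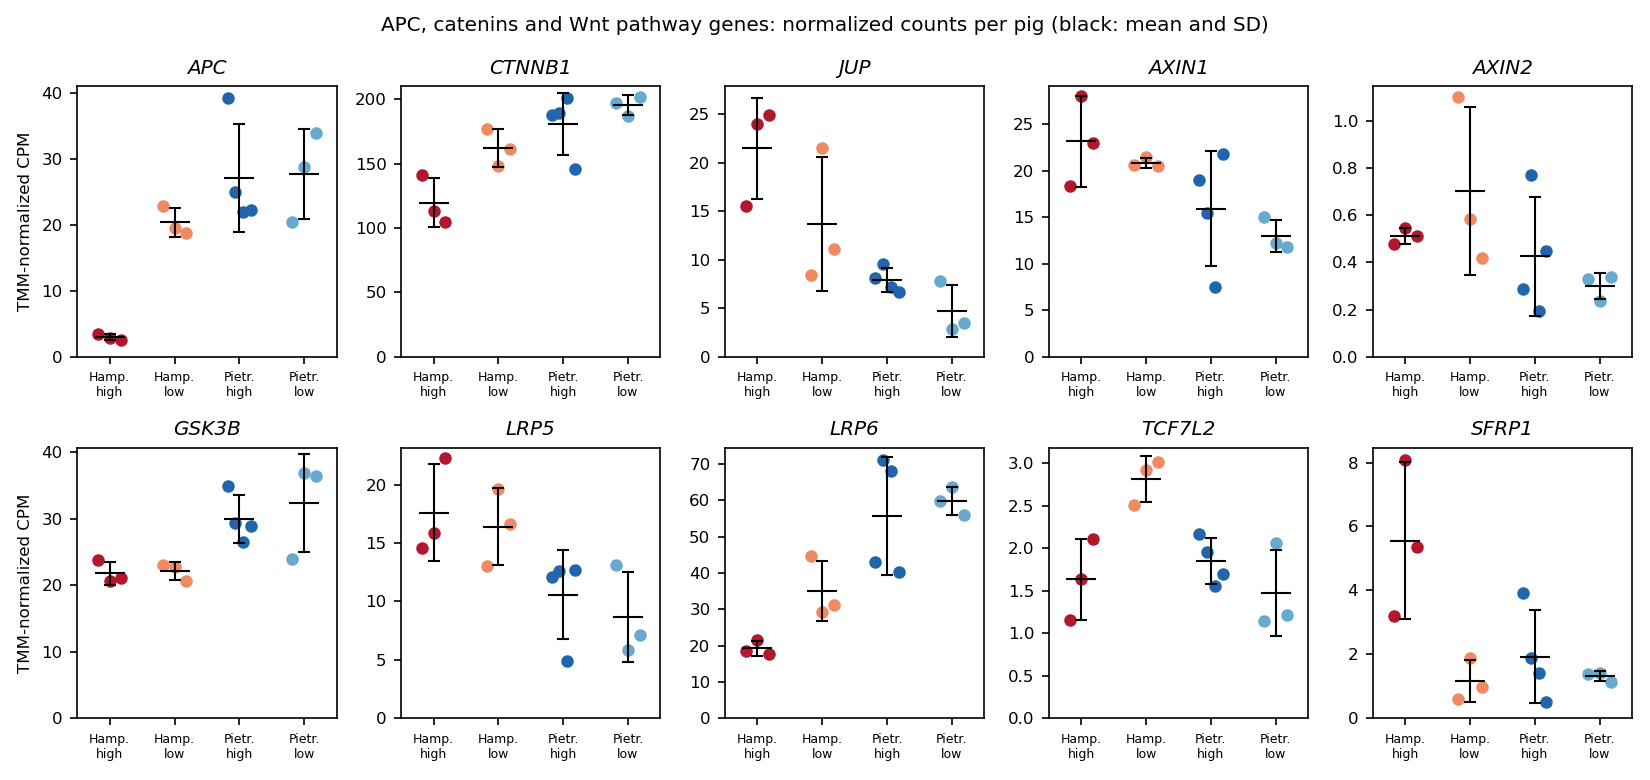
Normalized counts (TMM-normalized CPM, each vertical axis from 0) of the 10 genes in every pig, in Hampshire (Hamp.) and Pietrain (Pietr.) with high and low loin weight. Points are pigs, the horizontal bar is the group mean and the whiskers are its SD. APC lies between 2.62 and 3.47 CPM in Hampshire with high loin weight and between 18.8 and 39.2 CPM in all other pigs.

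APC (ENSSSCG00000014207, chromosome 2 from 121534758 to 121575617, Sscrofa10.2) encodes the large scaffold of the destruction complex. In Hampshire with high loin weight it was at 3.47, 2.91 and 2.62 CPM in pigs 8, 9 and 10, from 51, 32 and 41 counts. In Hampshire with low loin weight it was at 22.9, 19.5 and 18.8 CPM in pigs 1, 2 and 3, from 374, 402 and 269 counts. The lowest pig of the low group was thus far above the highest pig of the high group. The log2 fold change was -2.77 (SE 0.199), or 6.82-fold lower in high loin weight, which placed APC at rank 100 of 12228 genes by size of change. With 1 pig left out at a time it stayed between -2.92 and -2.69.

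In Pietrain with high loin weight APC was at 39.2, 24.9, 21.9 and 22.2 CPM in pigs 1, 2, 6 and 7. In Pietrain with low loin weight it was at 20.4, 28.7 and 33.9 CPM in pigs 3, 5 and 8. The groups overlapped over nearly their whole range. The log2 fold change was -0.00 (SE 0.259, 95% interval -0.58 to 0.57, adjusted p = 0.999, edgeR), and an exact permutation test of log2 CPM gave p = 0.886. Whether the change in Hampshire differs from that in Pietrain was not tested, since APC was chosen for the Hampshire one. The mean of the Hampshire groups lay 1.80 below that of the Pietrain groups on the log2 scale, which rests on the high loin weight pigs. Within low loin weight the breeds differed by -0.44 (SE 0.247) and within high loin weight by -3.17.

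AXIN1 (ENSSSCG00000023204, chromosome 3 from 41033945 to 41079796) encodes the limiting scaffold on which APC, GSK3 and β-catenin meet. It was at 18.4, 28.1 and 23.0 CPM in Hampshire pigs 8, 9 and 10 and at 20.6, 21.5 and 20.5 CPM in Hampshire pigs 1, 2 and 3. In Pietrain it was at 19.0, 15.5, 7.46 and 21.8 CPM in high loin weight and at 15.0, 12.2 and 11.8 CPM in low loin weight. Loin weight groups overlapped in either breed, with log2 fold changes of 0.15 (SE 0.188) in Hampshire and 0.33 (SE 0.331, 95% interval -0.40 to 1.07, adjusted p = 0.939, edgeR) in Pietrain. Between breeds AXIN1 was higher in Hampshire by 0.61 (SE 0.205, adjusted p = 0.0226, edgeR). Leaving out 1 pig at a time ended this call in 3 of 13 fits, those without Hampshire high loin weight pig 9 (0.52), Pietrain low loin weight pig 5 (0.56) or Pietrain low loin weight pig 8 (0.58). It was not made within low (0.69) or within high loin weight (0.54) alone.

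AXIN2 (ENSSSCG00000017265) encodes the second axin and is itself a classic target gene of the pathway. Its counts ran from 3 to 18 per pig, or 0.195 to 1.10 CPM, and it did not pass the filter in any comparison. Hampshire pigs with high loin weight had 7, 6 and 8 counts and those with low loin weight 18, 12 and 6. No difference in AXIN2 was detectable at this depth, with exact permutation p-values of 0.571 in Pietrain and 0.0571 between breeds.

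GSK3B (ENSSSCG00000011889, chromosome 13 from 149430809 to 149702182), the kinase that phosphorylates β-catenin, was at 23.8, 20.6 and 21.1 CPM in Hampshire with high loin weight and at 23.1, 22.7 and 20.7 CPM in Hampshire with low loin weight. Pietrain pigs had 34.95, 29.4, 26.5 and 29.0 CPM in high loin weight and 23.9, 36.9 and 36.4 CPM in low loin weight. It was the only gene of the 10 whose breeds did not overlap, beside 12.1% of all genes, although the lowest Pietrain pig and the highest Hampshire pig nearly met. GSK3B was lower in Hampshire by -0.50 on the log2 scale (SE 0.130, adjusted p = 0.00554, edgeR). The difference was -0.55 within low loin weight, where it did not pass (adjusted p = 0.0581), and -0.46 within high loin weight, where it did (adjusted p = 0.0491). After the trend of expression with gene length was removed, the difference was -0.19 and no longer passed (adjusted p = 0.277, limma). Loin weight gave log2 fold changes of -0.03 (SE 0.154) in Hampshire and -0.08 (SE 0.204, 95% interval -0.53 to 0.38, adjusted p = 0.965, edgeR) in Pietrain.

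LRP6 (ENSSSCG00000000625, chromosome 5 from 63577474 to 63674469) encodes a coreceptor that binds Wnt ligands together with Frizzled. It was at 18.5, 21.6 and 17.8 CPM in Hampshire pigs 8, 9 and 10 with high loin weight. In Hampshire pigs 1, 2 and 3 with low loin weight it was at 44.6, 29.3 and 31.2 CPM, so the groups were apart. The log2 fold change was -0.87 (SE 0.205), -0.82 and not called without pig 10, and -0.44 and not called once the gene length trend was removed. In Pietrain LRP6 was at 43.1, 71.2, 68.0 and 40.3 CPM in high loin weight and at 59.8, 63.6 and 55.9 CPM in low loin weight. The low group lay inside the range of the high group there, with a log2 fold change of -0.07 (SE 0.232, 95% interval -0.59 to 0.44, adjusted p = 0.970, edgeR).

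Between breeds LRP6 was lower in Hampshire by -1.15 (SE 0.167, adjusted p = 0.000118, edgeR), or 2.22-fold. The difference was also called among low loin weight pigs alone, at -0.77 (SE 0.239, adjusted p = 0.0399), and among high loin weight pigs alone, at -1.53. Only Hampshire low loin weight pig 1 reached into the Pietrain range.

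LRP5 (ENSSSCG00000012885, chromosome 2 from 3168524 to 3213765), the paralog of LRP6 with the same coreceptor role, went the other way between breeds. It was at 14.6, 15.9 and 22.3 CPM in Hampshire with high loin weight and at 13.0, 19.6 and 16.6 CPM in Hampshire with low loin weight. Pietrain pigs 1, 2, 6 and 7 with high loin weight had 12.1, 12.6, 4.93 and 12.7 CPM, and pigs 3, 5 and 8 with low loin weight had 13.1, 5.86 and 7.13 CPM. LRP5 was higher in Hampshire by 0.83 (SE 0.244, adjusted p = 0.0114, edgeR), with the breeds touching at 13 CPM. Within low loin weight the difference was 0.92 and within high loin weight 0.74, and neither passed alone. Loin weight gave 0.11 (SE 0.230) in Hampshire and 0.31 (SE 0.386, 95% interval -0.54 to 1.17, adjusted p = 0.940, edgeR) in Pietrain.

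SFRP1 (ENSSSCG00000025822, chromosome 17 from 11790234 to 11878618) encodes a secreted Wnt antagonist. It was at 3.20, 8.09 and 5.37 CPM in Hampshire with high loin weight, from 47, 89 and 84 counts. In Hampshire with low loin weight it was at 0.612, 1.90 and 0.981 CPM, from 10, 39 and 14 counts. Every pig of the high group was above every pig of the low group, with a log2 fold change of 2.22 (SE 0.476) or 4.65-fold. Without low loin weight pig 3 it was 2.11 and was not called. In Pietrain SFRP1 was at 3.91, 1.89, 1.43 and 0.50 CPM in high and at 1.40, 1.42 and 1.14 CPM in low loin weight. The log2 fold change in Pietrain was 0.56 (SE 0.596, 95% interval -0.76 to 1.88, adjusted p = 0.939, edgeR), and -0.02 without Pietrain high loin weight pig 1.

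Between breeds SFRP1 was not called, at 0.69 (SE 0.412, adjusted p = 0.175, edgeR). Within low loin weight the difference was -0.16 (SE 0.621, adjusted p = 0.870, edgeR), so its direction is not settled. Within high loin weight it was 1.53 (SE 0.537, adjusted p = 0.0302, edgeR), which rests on the Hampshire high loin weight pigs. With Pietrain high loin weight pig 1 left out, or with the gene length trend removed, the breed difference passed, at 1.01 and 1.06. Markers of fibroblasts and matrix moved beside SFRP1 in Hampshire: all 9 of 9 measured had a log2 fold change above 0. Their summed level was 2000 to 5200 CPM in high and 788 to 1760 CPM in low loin weight. In Pietrain all 9 were above 0 too, with sums of 882 to 2420 CPM and 995 to 1670 CPM, and no marker of the list was at 0 in every pig. The 7 macrophage markers measured were also all above 0 in each breed. Their sums in Hampshire were 146 to 200 CPM in high and 49.4 to 124 CPM in low loin weight, and in Pietrain 19.2 to 55.8 CPM and 17.6 to 26.8 CPM. Other marker lists were mostly above 0 in Hampshire as well: 8 of 10 skeletal muscle fibre, 4 of 5 endothelial and 5 of 6 smooth muscle and pericyte markers. Of the satellite cell markers 2 of 4 were above 0. The share of all genes above 0 was not counted. Median sums in Hampshire with high and low loin weight were 4120 and 1710 CPM for fibroblast and matrix markers. For macrophage markers they were 190 and 110 CPM, and for skeletal muscle fibre markers 273000 and 204000 CPM. Smooth muscle and pericyte markers had 246 and 181 CPM, endothelial markers 172 and 141 CPM, and satellite cell markers 41.9 and 43.8 CPM. The part of any of these cells in the SFRP1 values was not tested.

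CTNNB1 (ENSSSCG00000011274, chromosome 13 from 27623128 to 27667302) encodes β-catenin, the protein that the destruction complex removes. It was at 141, 113 and 105 CPM in Hampshire with high loin weight and at 177, 148 and 161 CPM in Hampshire with low loin weight. These groups did not overlap, and the log2 fold change was -0.44 (SE 0.171), which was called only without high loin weight pig 8 (-0.61) among the fits that left out a pig. In Pietrain CTNNB1 was at 188, 189, 201 and 146 CPM in high and at 197, 187 and 202 CPM in low loin weight, a log2 fold change of -0.08 (SE 0.172, 95% interval -0.46 to 0.30, adjusted p = 0.958, edgeR). Between breeds it was lower in Hampshire by -0.44 (SE 0.118, adjusted p = 0.00713, edgeR). Among low loin weight pigs alone the difference was -0.27 (adjusted p = 0.269), and with the gene length trend removed it was -0.17 (adjusted p = 0.174, limma). Neither of these passed.

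JUP (ENSSSCG00000017428, chromosome 12 from 21145390 to 21174257) encodes plakoglobin, the junctional relative of β-catenin. It was at 15.5, 24.0 and 24.9 CPM in Hampshire with high loin weight and at 8.45, 21.5 and 11.1 CPM in Hampshire with low loin weight. The groups overlapped through low loin weight pig 2, and the log2 fold change of 0.65 (SE 0.341) became 1.12 without that pig and 0.35 without low loin weight pig 1. In Pietrain JUP was at 8.10, 9.51, 7.20 and 6.70 CPM in high and at 7.80, 2.85 and 3.496 CPM in low loin weight. It had the smallest p-value of the 9 genes tested there, with a log2 fold change of 0.77 (SE 0.363, 95% interval -0.04 to 1.57, adjusted p = 0.939, edgeR). Leaving out low loin weight pig 5 gave 0.49 and leaving out low loin weight pig 3 gave 1.37, called in neither fit. The exact permutation test gave p = 0.0857, where the smallest p-value possible is 0.0286. The study itself, with DESeq2, lists JUP among its differentially expressed genes of both breeds, higher in high loin weight. Its adjusted p-value passed there in Pietrain and not in Hampshire, while here JUP was called in neither breed.

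Between breeds JUP was higher in Hampshire by 1.495 (SE 0.263, adjusted p = 0.000446, edgeR), or 2.82-fold. It was called within low loin weight at 1.55 (adjusted p = 0.0219) and within high loin weight at 1.45 (adjusted p = 0.00428), and in all 13 fits that left out a pig. Hampshire low loin weight pig 1 was the only Hampshire pig below any Pietrain pig.

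TCF7L2 (ENSSSCG00000010638, chromosome 14 from 134586336 to 134788242) encodes the DNA-binding partner of β-catenin. It rested on 14 to 60 counts per pig. It was at 1.16, 1.64 and 2.11 CPM in Hampshire with high loin weight and at 2.51, 2.92 and 3.01 CPM in Hampshire with low loin weight. The groups did not overlap, and the log2 fold change of -0.78 (SE 0.322) was not called. In Pietrain it was at 2.17, 1.96, 1.56 and 1.70 CPM in high and at 1.15, 2.06 and 1.21 CPM in low loin weight, with a log2 fold change of 0.36 (SE 0.385, 95% interval -0.49 to 1.22, adjusted p = 0.939, edgeR). Between breeds it was at 0.38 (SE 0.236, adjusted p = 0.190, edgeR). It was at 0.93 (SE 0.345) within low loin weight and at -0.17 (SE 0.325) within high loin weight. With the gene length trend removed the breed difference was 0.71 and passed (adjusted p = 0.0166, limma).

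**Figure D2:**
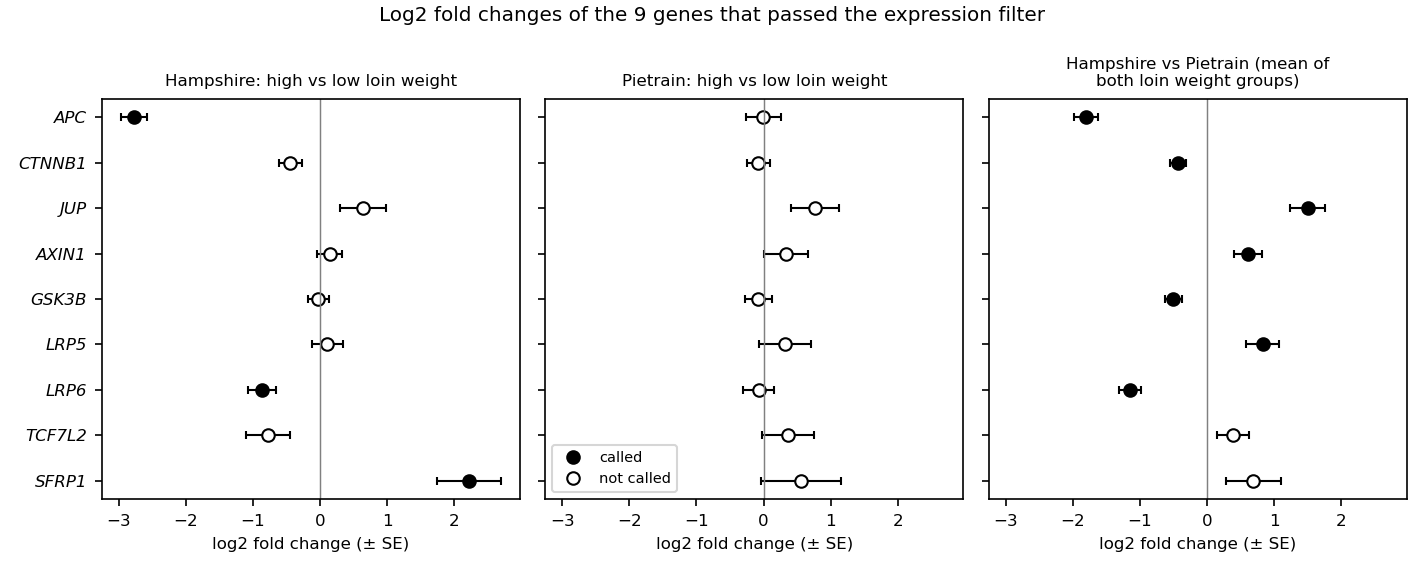
Log2 fold changes with their SE (horizontal axis) of the 9 genes tested, for high against low loin weight in Hampshire and in Pietrain, and for Hampshire against Pietrain. Filled points are called and open points are not. All 9 points of Pietrain are open, while APC, LRP6 and SFRP1 are filled in Hampshire and 7 genes are filled between breeds.

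The paralogs of the same pathway step were set against each other within each pig, which removes library size. Paralogs may share reads, so single values for CTNNB1 and JUP, AXIN1 and AXIN2, and LRP5 and LRP6 are uncertain to that extent. Of 6 tests (3 pairs in Pietrain and between breeds), 2 passed, both between breeds. There 25.4% of all genes were called higher and 26.9% lower, so ratios of other gene pairs may differ too. No other pairs were tested, and nothing particular to paralogs is read from this count. The log2 ratio of JUP to CTNNB1 averaged -2.47 in Hampshire with high and -3.62 with low loin weight, and -4.44 and -5.35 in Pietrain. It was thus higher in Hampshire by 1.85 (exact permutation test, p = 0.00143, adjusted 0.00429), the smallest p-value this test can give. The log2 ratio of LRP5 to LRP6 averaged -0.15 and -1.07 in Hampshire and -2.38 and -2.79 in Pietrain, and was higher in Hampshire by 1.98 (exact permutation test, p = 0.00143, adjusted 0.00429). Hampshire pigs had ratios from -1.74 to 0.32 and Pietrain pigs from -3.66 to -1.63, with only Hampshire low loin weight pig 1 inside the Pietrain range.

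In Pietrain the ratio of JUP to CTNNB1 differed by 0.91 between high and low loin weight (exact permutation test, p = 0.0571, adjusted 0.114) and that of LRP5 to LRP6 by 0.41 (p = 0.514, adjusted 0.617, exact). For AXIN2 against AXIN1 the differences were -0.02 in Pietrain (p = 0.971, exact) and -0.28 between breeds (p = 0.223, adjusted 0.334, exact), both over few AXIN2 counts.

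Gene length on the chromosome moved with the Hampshire and the breed differences over all genes. In Hampshire the median log2 fold change was 0.38 over 3108 genes under 10 kb and -0.34 over 920 genes over 100 kb, while in Pietrain these medians were 0.05 and -0.04. Between breeds they were 0.37 and -0.36. The 9 genes with coordinates spanned 28.9 kb (JUP) to 271 kb (GSK3B). With a trend on length removed within each pig, APC in Hampshire was at -2.50 (SE 0.197) and SFRP1 at 2.66, close to or beyond their values before. The length is the span on the chromosome, 40.9 kb for APC, and a trend on transcript length was not tested. LRP6 moved to -0.44, CTNNB1 to -0.17 and TCF7L2 to -0.38. GSK3B moved to 0.40, AXIN1 to 0.41, LRP5 to 0.38 and JUP to 0.89.

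**Figure D3:**
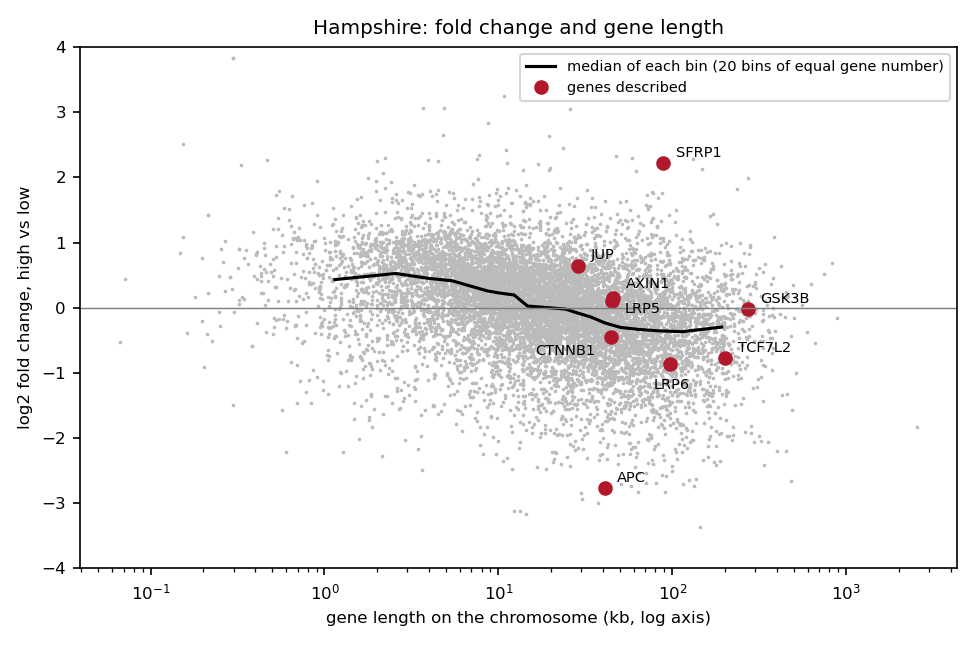
Log2 fold change of high against low loin weight in Hampshire (vertical axis) by gene length on the chromosome (horizontal axis, kb, logarithmic) for 9945 genes with coordinates, 1 of them outside the axis. The line joins medians of 20 bins of equal gene number and the red points are the 9 genes tested. APC at -2.77 and SFRP1 at 2.22 lie far from the line, and CTNNB1 and LRP6 lie nearer to it.

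The rest of the pathway was counted over a list of 124 further symbols, of which 101 were found and 66 tested in Hampshire. In Hampshire 12 of the 66 were called, 3 higher and 9 lower, a share of 18.2% beside 26.6% of all genes. These are again values of the contrast that chose the genes. The number fell to 3 without Hampshire low loin weight pig 3. For that fit the share of all genes called was not counted, so nothing is read from the fall. The higher ones were SFRP5, a secreted antagonist like SFRP1, at 1.58, PPP2R1A, the scaffold of protein phosphatase 2A, at 0.79, and PYGO2, a nuclear coactivator, at 0.53.

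SFRP5 was at 3.20 to 8.55 CPM in high and 1.35 to 1.96 CPM in low loin weight. The 4 called genes with the lowest values in Hampshire with high loin weight were TNKS (-1.50), a tankyrase that marks axin for degradation, PYGO1 (-1.45), the paralog of PYGO2, FBXW11 (-1.35), an F-box protein that recognises phosphorylated β-catenin, and CCDC88C (-1.33), which binds Dishevelled. TNKS was at 1.85 to 2.59 CPM in high and 5.94 to 7.29 CPM in low loin weight, with no overlap. Of the 18 genes of the cytoplasmic and destruction complex list, 1 was called higher, beside 12% of all genes, and 5 lower, beside 14.6%. DESeq2 called 5 of the 18, and nothing is read from these counts either.

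In Pietrain 0 of 61 genes of the list were called by edgeR and 0 by DESeq2, beside 0% of all genes. An unadjusted p-value under 0.05 was found for 2 of the 61, beside 3.3% of all genes. The genes with the smallest unadjusted p-values are given as values only. They were the antagonist SFRP2 (1.65, SE 0.742), the receptor FZD2 (1.04, SE 0.507) and the Dishevelled gene DVL2 (0.56) on the higher side. On the lower side they were TNKS2 (-0.42), the F-box gene BTRC (-0.30) and the receptor FZD6 (-0.57). All had an adjusted p-value of 0.939. SFRP2 ranged from 4.197 to 36.7 CPM in high and from 2.02 to 10.1 CPM in low loin weight.

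Between breeds 37 of the 66 genes were called, 21 higher and 16 lower in Hampshire, a share of 56.1% beside 52.3% of all genes. By role, 15 of 18 cytoplasmic and destruction complex genes were called (5 higher, 10 lower), 6 of 10 receptors, 8 of 15 nuclear partners, 3 of 6 adherens junction genes, 2 of 7 inhibitors and 1 of 6 ligand genes. PKP2, a desmosomal partner of JUP, was among the called genes, at 0.727 to 5.88 CPM in Hampshire and at 0 to 0.519 CPM in Pietrain. It did not pass the expression filter within Pietrain and was kept through the Hampshire pigs, so its call is not given as support. The same holds for ROR2, among the receptors called. Both genes are counted in the 37 and in the 21 higher, so these counts are not given as support either. FZD2 was higher by 2.58 (SE 0.252, adjusted p = 1.15e-05, edgeR), at 3.29 to 6.27 CPM in Hampshire and 0.403 to 1.45 CPM in Pietrain.

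Also higher in Hampshire were PPP2R1A (1.16), CTNNA1 (0.65), the α-catenin that links β-catenin and JUP to actin, PYGO2 (0.62) and GSK3A (0.60). GSK3A, the paralog of GSK3B, thus had the opposite sign to GSK3B, though the GSK3B difference fell to -0.19 and did not pass with the gene length trend removed. The genes lower in Hampshire by the smallest p-values were TNKS2 (-1.21, SE 0.134, adjusted p = 2.15e-05, edgeR), PYGO1 (-1.92), the Wnt receptor RYK (-0.91), the acetyltransferase gene EP300 (-0.71), TNKS (-1.08) and BTRC (-0.65). For TNKS this rests mostly on Hampshire with high loin weight, at a mean of 2.30 CPM. Its low loin weight groups overlapped, at 5.94 to 7.29 CPM in Hampshire and 6.24 to 8.94 CPM in Pietrain. Of the 12 Wnt target genes listed, 8 were found and 4 were tested between breeds (TCF7, RNF43, ZNRF3 and MYC). By edgeR 0 of the 4 were called, beside 52.3% of all genes, and also 0 by DESeq2. An unadjusted p-value under 0.05 was found for 0 of the 4, beside 58.5% of all genes. With 4 genes tested, nothing is read from these counts.

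**Figure D4:**
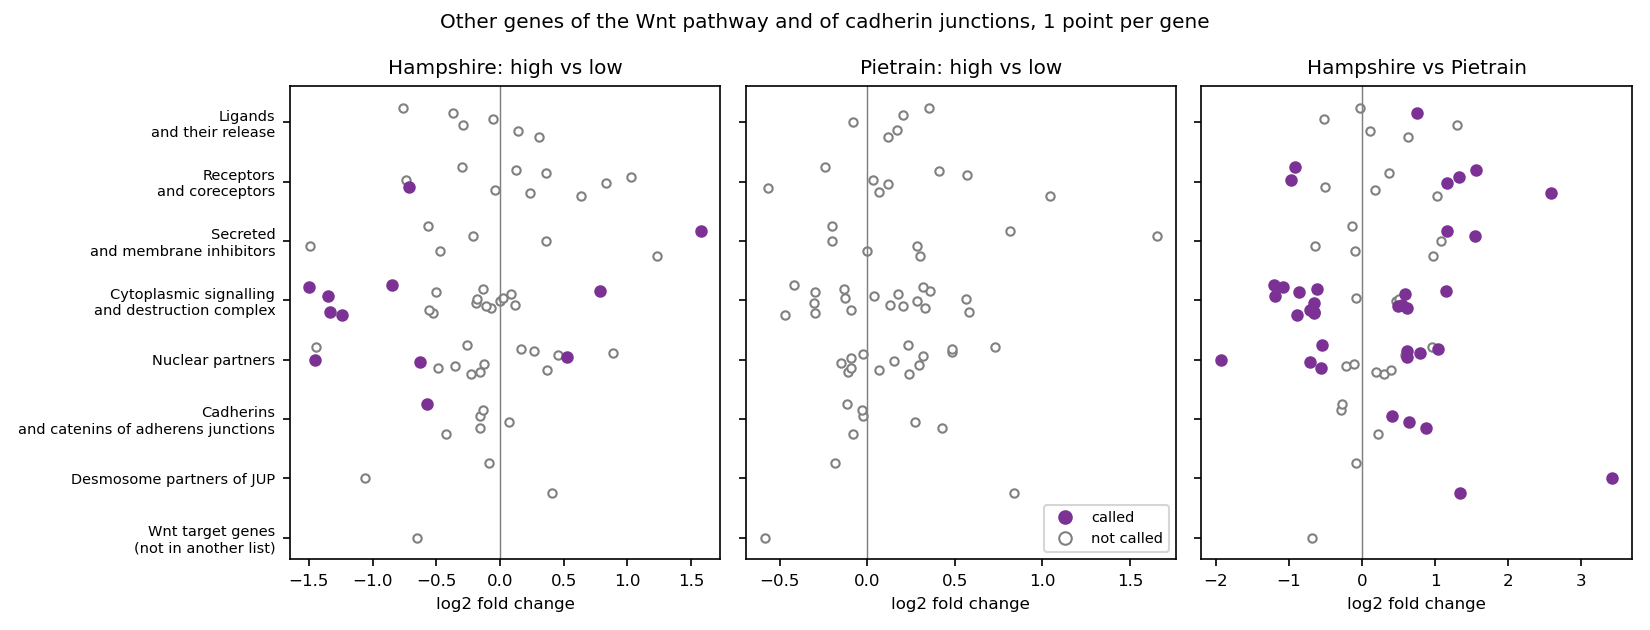
Log2 fold change (horizontal axis, a different range in each panel) of the further pathway and junction genes, by role (vertical axis), for Hampshire, Pietrain and Hampshire against Pietrain. Each point is a gene, filled where it was called. In Pietrain all 61 points are open, and in Hampshire 12 of 66 and between breeds 37 of 66 are filled.

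The genes whose profile was most like that of APC were found by the smallest root mean square difference of centred log2 CPM over the 13 pigs, among 9814 genes with a symbol. They were KIF1B, a kinesin motor (0.187), RC3H1, an RNA-binding protein of mRNA decay (0.229), CU459197.4 (0.229), ATP2B1, a calcium pump of the plasma membrane (0.235), and FAM199X (0.263). They lie on chromosomes 6, 9, 4, 5 and X, apart from APC. KIF1B averaged 16.9 CPM in Hampshire with high loin weight, 84.5 with low, and 121 and 120 in Pietrain, a log2 fold change of -2.33 in Hampshire and 0.04 in Pietrain. The other 4 had log2 fold changes of -2.71 to -2.22 in Hampshire and -0.28 to 0.08 in Pietrain. The likeness is a description that rests on the same Hampshire pigs. Of the other 9 genes followed, LRP6 was nearest to APC in profile (0.763, rank 658) and JUP was farthest (1.99).

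APC was also set beside its neighbours on chromosome 2, a look chosen after its values were seen. Of 11 genes within 1500000 bases, 10 were tested in Hampshire and 9 had a log2 fold change below 0, from -1.56 to 0.68. The median over all genes was 0.03, with 0.04 for genes of 10 to 30 kb and -0.25 for genes of 30 to 100 kb. The share of all genes below 0 was not counted, and nothing is read from the count of neighbours. The nearest neighbour, ENSSSCG00000024866, listed as a pseudogene 3.34 kb away, was at -1.56 (SE 0.229), with means of 11.4 and 33.6 CPM in high and low loin weight. SRP19, 11.8 kb away on the other side, was at -0.02 (SE 0.165) and REEP5 at -0.36 (SE 0.162). Further out, YTHDC2 was at -1.27, WDR36 at -1.02, SLC25A46 at -0.77 and EPB41L4A at 0.68. None was as low as APC, and in Pietrain the 11 neighbours were between -0.33 and 0.07.

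**Figure D5:**
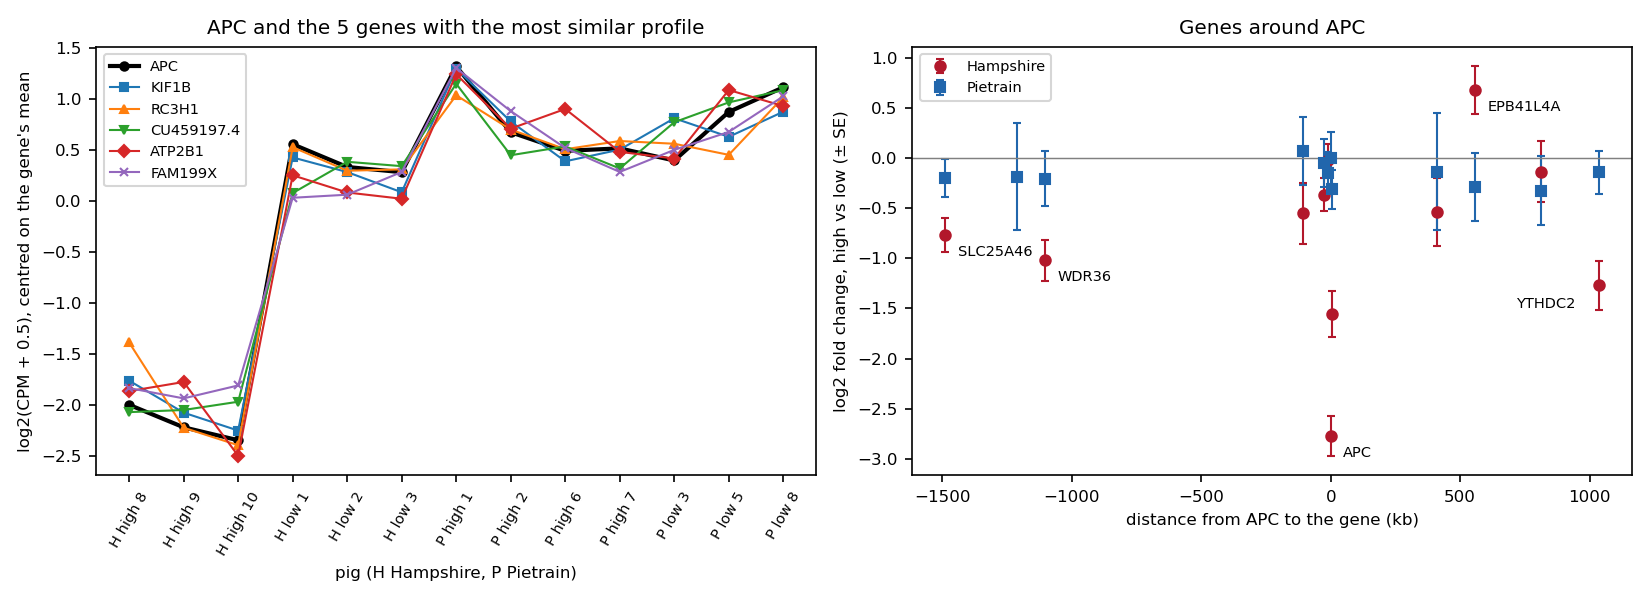
Left, log2(CPM + 0.5) centred on each gene's mean (vertical axis) in the 13 pigs (horizontal axis) for APC and the 5 genes with the most similar profile. Right, log2 fold change with SE of high against low loin weight (vertical axis) by distance from APC in kb (horizontal axis) for APC and its neighbours, in Hampshire (circles) and Pietrain (squares). APC at -2.77 is the lowest circle, and the squares lie between -0.33 and 0.07.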

How the data were processed

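RNA-seq of longissimus lumborum muscle from 13 pigs was analysed. The authors deposited whole-number counts of reads per Ensembl gene, 1 column per pig and 1 table per breed, from reads aligned to Sscrofa10.2. FastQC, STAR, RSEM and DESeq2 are named in the submitters' processing notes, and the annotation release is not given in the sources used here. RSEM gives estimates, so the counts may be rounded ones. The authors' tables of comparisons (fold changes and p-values) were used for symbols and coordinates only. Symbols came from them for 7066 identifiers and from a gene name table for 6102 more, and 9975 identifiers had coordinates.

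The main tests were those of edgeR 4.0.16 under R 4.3.3, with TMM scaling, the filterByExpr filter and the functions glmQLFit and glmQLFTest. Fits were made within each breed, or over all 13 pigs for the breed difference, with Benjamini-Hochberg adjustment over all genes tested. Each SE is the log2 fold change divided by the square root of F, with 95% intervals from the t distribution of the same fit. Exact permutation tests were two-sided, on log2(CPM + 0.5) with CPM normalized over all pigs, over 35 assignments in Pietrain and 700 between breeds within loin weight groups. Alternatives used DESeq2 1.42.0, limma 3.58.1 with a spline of 3 degrees of freedom on gene length, other filters, other pseudocounts and each pig left out. Scripts were tested on simulated data. Figures used matplotlib 3.10.9 in Python 3.11.15.

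The 10 genes and all lists were chosen with earlier results of these data known. From the wider list, the genes named were up to 4 called per direction by log2 fold change in Hampshire and up to 6 per direction by adjusted p-value between breeds. In Pietrain, with none called, they were the 3 per direction with the smallest p-value. The 5 genes most like APC were named too. Pig numbers name different animals and pair nothing. All 4 Pietrain pigs labelled high loin weight were used, although the study's own description of its animals lists 3.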

Additional observations from a re-analysis of the deposited data

Results flagged for a closer look

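LRP5 was at 4.93 CPM in Pietrain high loin weight pig 6, while the other 3 pigs of that group were at 12.1, 12.6 and 12.7 CPM. The gap to the nearest of them took 0.921 of the range of the group, above Dixon's critical value of 0.829 for 4 samples. The 10 genes were each examined in this group, the only one of 4 pigs, and 1 exceeded that value. Chance alone does so in about 1 of 20 groups.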

How the results depend on the processing

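DESeq2, its size factors in edgeR, other filters, no fold change threshold, a single fit over all pigs and removal of the gene length trend left the numbers of called genes within 1.5 times of those given, for the 10 genes and for the wider list. In Pietrain the number stayed at 0 throughout. The number called of the 10 ran from 2 to 4 in Hampshire and from 6 to 8 between breeds with 1 pig left out. In Hampshire LRP6 lost its call without high loin weight pig 10 (-0.82) and with the gene length trend removed (-0.44), and SFRP1 without low loin weight pig 3 (2.11), while CTNNB1 gained one without high loin weight pig 8 (-0.61) and JUP without low loin weight pig 2 (1.12). The wider list in Hampshire gave 3 to 13 called genes, the lowest without low loin weight pig 3. Shares over all genes were not counted for the fits with 1 pig left out, so nothing is read from these ranges. The cause of these changes was not tested.

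Between breeds TCF7L2 turned to -0.1706 (SE 0.325) within high loin weight and SFRP1 to -0.1614 (SE 0.621) within low loin weight. Both values are smaller in size than their SE, and the cause was not tested. AXIN1 lost its call without Hampshire high loin weight pig 9 (0.52, adjusted p = 0.0718), Pietrain low loin weight pig 5 (0.56, adjusted p = 0.0614) or Pietrain low loin weight pig 8 (0.58, adjusted p = 0.0583), all by edgeR. The log2 ratio of AXIN2 to AXIN1 in Pietrain turned to 0.08632 with a pseudocount of 0.1 CPM.

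Leaving out a pig changed the sign of several Pietrain values, with none called. The log2 fold change ran from -0.2082 to 0.1804 for APC, -0.1291 to 0.005066 for CTNNB1, -0.2245 to 0.02489 for GSK3B, -0.1889 to 0.05639 for LRP6 and -0.01593 (without high loin weight pig 1) to 0.8835 for SFRP1. The log2 ratio of AXIN2 to AXIN1 ran from -0.2097 to 0.1602. No paired analysis was possible because pig numbers name different animals, and groups of the same loin weight or of the same breed share fewer than 2 of them. Counts were few for AXIN2 (3 to 18 per pig), TCF7L2 (14 to 60) and SFRP1 (10 to 89).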
